A study of Mus musculus with 20 samples.

Results

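This report describes 312 places in the mouse genome where a Suz12 peak was called after transcription had been blocked and none was called in untreated cells. All lie away from the ends of any protein-coding gene. They were chosen from the deposited Suz12 peak lists. Peaks of 8 lists that overlapped by 1 bp or more were merged into 11943 regions, and a region was kept if it held a peak in all 4 lists of drug-treated cells, in 0 of the 4 lists of untreated cells, and if its widest peak lay more than 1 kb from both annotated ends of every protein-coding gene. Of 1065 regions gained in this sense, 753 lay at a gene end and 312 did not. Of the 312 sites, 261 overlapped a protein-coding gene (gene body sites, in 244 host genes) and 51 overlapped none (called intergenic here).

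The cells were wild-type E14 mouse embryonic stem cells, an established line, grown in serum with leukemia inhibitory factor on gelatin. They were sampled at 0 h and after 12 h of DRB at 100 µM, and at 0 h and after 9 h of triptolide at 10 µM. Each of the 4 groups has 2 Suz12 ChIP-seq libraries, each drug has its own 0 h pair, and dose and time differ between the drugs. DRB, a nucleoside analogue, inhibits the kinases that release paused RNA polymerase II, and triptolide blocks transcription initiation through the XPB subunit of TFIIH. The design text calls the pairs biological replicates. Nothing given says that they came from separate cultures, so errors measure the spread between these libraries. The labels' cell type could not be checked here, since the files hold no expression values. The DRB count columns carry an index sequence and no replicate number, so those libraries are named by index ATCACG or TGACCA.

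Suz12 belongs to the core of PRC2, a Polycomb complex that methylates lysine 27 of histone H3 and helps to keep developmental genes silent in embryonic stem cells. In these cells PRC2 is known mainly from CpG islands, stretches of GC-rich DNA in which the CG dinucleotide has not been lost, most of them at promoters. Many genes have further promoters inside the annotated gene, and some CpG islands lie far from any annotated start, so a CpG island is not always at a gene end.

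The data behind the sites are counts of Suz12 reads over the widest peak of each region. The 8 libraries held 1323927 to 7340017 reads over all regions, and treated libraries held more within each drug series. DRB libraries of index ATCACG held 1323927 at 0 h and 2416523 at 12 h, and those of index TGACCA 4396744 and 7340017. Triptolide libraries held 3699979 and 3070224 at 0 h and 4334359 and 4441617 at 9 h. Whether read number bears on which peaks were called was not tested. The lists of treated cells were longer, with 7153 to 10929 peaks against 5116 to 6886 in untreated cells. Levels are given as CPM, counts scaled to a common library size over all regions with TMM factors, which take the typical region as constant. Untreated and treated libraries carry different lane numbers in the file headers, so lane and treatment cannot be told apart.

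What RefSeq annotates inside the sites was not used to choose them. Of the 257 gene body sites on chromosomes that the RefSeq start table covers, 58 (22.6%) held the start of an annotated protein-coding transcript within the peak. These starts lie more than 1 kb from the outer annotated ends of the gene and are called internal for that reason. For 27 of the 58 genes, Ldha among them, the start table lists no start outside the site. Since each site lies more than 1 kb from the annotated ends of its gene, the table lacks a start at those ends for these genes. Whether their internal start is an additional one cannot be read from the table. Among gene body regions away from gene ends the share was higher, 31.7%, where all 8 lists had a peak, and 21.6% at the remaining such regions. The start table does not cover every gene. It gave a strand for the host genes of all 58 sites with a start, but of only 144 of the 199 without. Where it has no start for a host gene, that gene's starts could not be counted, so these shares may be too low. A wider peak can more easily hold a start, and widths differed. The median was 1475 bp at gene body sites. With intergenic regions included, it was 2100.5 bp where all 8 lists had a peak and 913 bp at the remaining regions. The 58 sites held 70 such starts. To show what these starts look like, the 250 bases before 5 of them are printed here with every CG dinucleotide in capitals. With them are 2 other starts of the same genes, which lay in the widest Suz12 peak of no region. Labels give the place of the start itself, and "outside any peak" is meant in that sense. Sequences are from RefSeq (GRCm38.p6), 5′ to 3′ on the gene's strand, and were picked after the values were seen.
Ltbp4 (inside a gained site), chr7:27333649-27333898, minus strand: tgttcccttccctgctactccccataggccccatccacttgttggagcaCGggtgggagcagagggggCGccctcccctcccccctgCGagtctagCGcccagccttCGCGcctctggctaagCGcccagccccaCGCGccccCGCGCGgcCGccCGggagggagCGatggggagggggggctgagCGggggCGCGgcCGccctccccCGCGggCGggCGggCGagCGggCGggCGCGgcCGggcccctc
Ldha (inside a gained site), chr7:46845554-46845803, plus strand: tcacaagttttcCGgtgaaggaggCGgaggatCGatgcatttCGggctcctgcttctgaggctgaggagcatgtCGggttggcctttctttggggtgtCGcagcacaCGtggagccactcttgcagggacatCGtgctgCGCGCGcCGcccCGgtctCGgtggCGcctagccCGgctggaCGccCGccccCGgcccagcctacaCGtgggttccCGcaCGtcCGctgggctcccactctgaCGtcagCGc
Arhgef2 (inside a gained site), chr3:88621221-88621470, plus strand: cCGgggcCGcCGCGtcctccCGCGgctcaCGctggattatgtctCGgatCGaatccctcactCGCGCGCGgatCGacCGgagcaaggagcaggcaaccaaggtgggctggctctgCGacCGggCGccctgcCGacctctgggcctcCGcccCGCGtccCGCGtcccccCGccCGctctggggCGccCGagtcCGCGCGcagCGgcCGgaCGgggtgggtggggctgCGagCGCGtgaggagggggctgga
Arhgef2 (outside any peak), chr3:88615893-88616142, plus strand: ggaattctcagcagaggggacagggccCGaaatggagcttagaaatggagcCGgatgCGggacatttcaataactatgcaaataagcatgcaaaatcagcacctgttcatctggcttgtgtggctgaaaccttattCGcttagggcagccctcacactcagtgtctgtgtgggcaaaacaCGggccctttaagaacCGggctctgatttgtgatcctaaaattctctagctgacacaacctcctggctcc
Mia2 (inside a gained site), chr12:59131231-59131480, plus strand: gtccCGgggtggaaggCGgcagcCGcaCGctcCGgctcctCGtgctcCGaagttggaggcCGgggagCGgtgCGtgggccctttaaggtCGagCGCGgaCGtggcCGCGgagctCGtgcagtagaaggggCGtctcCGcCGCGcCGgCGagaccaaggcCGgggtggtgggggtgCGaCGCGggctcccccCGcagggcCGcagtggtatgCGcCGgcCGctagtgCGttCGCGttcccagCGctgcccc
Mia2 (outside any peak), chr12:59095341-59095590, plus strand: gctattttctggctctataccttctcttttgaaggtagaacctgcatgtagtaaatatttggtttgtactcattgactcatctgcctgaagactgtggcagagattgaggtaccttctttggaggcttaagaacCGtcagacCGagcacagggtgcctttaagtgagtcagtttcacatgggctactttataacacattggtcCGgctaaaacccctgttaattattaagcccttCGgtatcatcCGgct
Lmna (inside a gained site), chr3:88503353-88503602, minus strand: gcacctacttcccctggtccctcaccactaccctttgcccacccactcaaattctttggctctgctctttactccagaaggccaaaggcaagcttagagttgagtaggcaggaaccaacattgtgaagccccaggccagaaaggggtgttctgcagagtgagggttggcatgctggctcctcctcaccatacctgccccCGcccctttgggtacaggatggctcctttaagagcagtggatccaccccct
The starts inside gained sites at Ltbp4, Ldha, Arhgef2 and Mia2 held 29, 25, 37 and 36 CG dinucleotides in the bases shown. The upstream starts of Arhgef2 and Mia2, which lay outside the widest Suz12 peak of every region, held 6 and 5. Among the 5 starts shown inside gained sites the Lmna start is the exception, with 1 CG. The Lmna peak ends at position 88503491, so part of the bases shown lies outside it.

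The same contrast held over the full sets. In a window from 250 bases before to 50 bases after each start, the 70 starts inside gained sites had a median of 25.5 CG dinucleotides (range 1 to 55). The 47 other annotated protein-coding starts of the same genes, found in 31 of the 58, had a median of 7. All 21045 protein-coding starts of the RefSeq table had a median of 13. A window was called CpG-rich if its GC content was at least 50% and its ratio of observed to expected CG at least 0.6. By that rule 52 of the 70 starts (74.3%) were CpG-rich, against 12 of the 47 other starts (25.5%) and 45.6% of all starts. Starts at other regions with Suz12 peaks were CpG-rich in 80.9% of cases at gained sites at gene ends, 66.6% at regions with a peak in all 8 lists away from gene ends and 69.5% at the other regions away from gene ends. CG itself, searched on both strands since it reads the same on each, occurs at least once in 94.7% of all windows in the table. These shares are descriptions, since starts within 1 gene share sequence and a start is not shown to be used. Of the 47 other starts, 32 lay in the widest Suz12 peak of no region. Another 4 lay in that of a region gained at a gene end, and 5 in that of a region with a peak in all 8 lists.

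**Figure D1:**
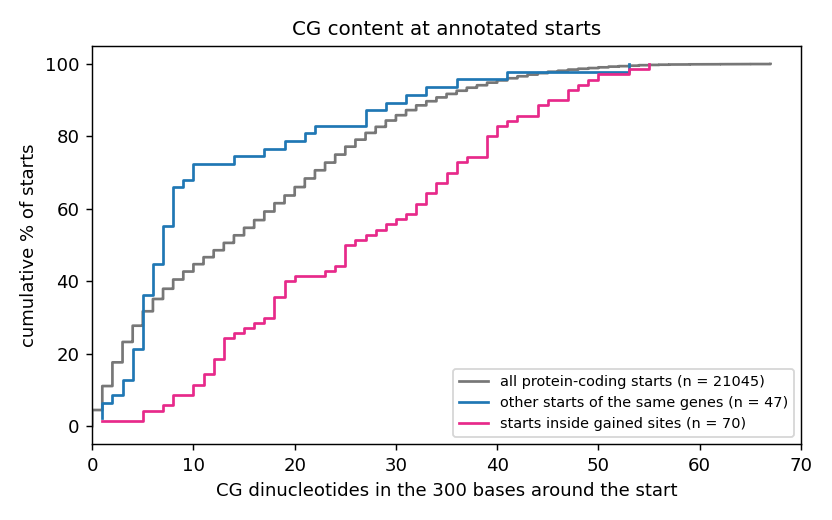
Cumulative share of annotated protein-coding starts (y axis, %) by the number of CG dinucleotides in the 300 bases around the start (x axis). The curve of the 70 starts inside gained sites (median 25.5) lies to the right of all starts of the table (n = 21045, median 13) and of the 47 other starts of the same genes (median 7).

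The 5 sites whose starts are shown carried more Suz12 in every treated library than in any untreated one. At Ltbp4, which encodes a protein that holds latent TGF-beta in the extracellular matrix, the peak at chr7:27332572-27334934 had 32.0 and 21.4 CPM at DRB 0 h (indexes ATCACG and TGACCA) and 126 and 74.6 CPM at DRB 12 h. The triptolide libraries had 22.7 and 24.9 CPM at 0 h and 77.8 and 78.1 CPM at 9 h. The log2 change, as the mean of both drugs, was 1.85 ± 0.19 (SE of the fit over 8 libraries, as in all log2 changes given with ± here). At Ldha, the lactate dehydrogenase A gene of glycolysis, the values were 20.5 and 34.4 CPM at DRB 0 h, 85.2 and 96.4 CPM at 12 h, 34.4 and 38.6 CPM at triptolide 0 h and 118 and 98.9 CPM at 9 h. The peak of Ldha at chr7:46845128-46847306 lay 2854 bp from the nearest gene end, and its log2 change was 1.60 ± 0.15.

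Arhgef2, which encodes a microtubule-bound activator of RhoA, had 32.0 and 24.5 CPM at DRB 0 h and 88.0 and 73.9 CPM at 12 h at its inner site (chr3:88620773-88622839). With triptolide its 2 libraries went from 19.2 and 26.7 CPM at 0 h to 82.5 and 69.1 CPM at 9 h. The site lies 26693 bp from the nearest gene end and also holds the start of the long non-coding RNA gene Gm20652. At the inner start of Mia2, whose product acts in export from the endoplasmic reticulum, untreated libraries held 28.8 to 37.9 CPM and treated ones 52.4 to 65.8 CPM. The Lmna site, in the gene of A-type lamins, holds the start with the CG-poor window. It also separated, with 22.1 to 39.4 CPM untreated and 53.0 to 74.4 CPM treated. The log2 change at Lmna was 1.13 ± 0.18. At the sites shown with CpG-rich starts it was 1.85 (Ltbp4), 1.60 (Ldha), 1.65 ± 0.15 (Arhgef2) and 0.79 ± 0.13 (Mia2).

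Since the peak calls chose the sites, the change in counts between untreated and treated cells is given as a description and nothing is read from it. Over both drugs, 249 of the 312 sites were called higher at an adjusted p under 0.05 (edgeR quasi-likelihood test, Benjamini-Hochberg over all regions), beside 28.0% of all regions tested. By class, 217 of 261 gene body sites (83.1%) and 32 of 51 intergenic sites (62.7%) were called. Against its own 0 h pair, DRB gave 195 sites called higher, beside 18.0% of all regions, and triptolide gave 199, beside 19.3%. The calls overlapped at 171 sites, which is 171 of the 195 and 171 of the 199, beside 14.3% of all regions called higher under both drugs (1702 regions). At 213 sites the lowest treated library exceeded the highest untreated one, as at 24.4% of all regions. The other 63 sites were not called, and 6 of these had a fitted change below 0. The median log2 change was 0.77 over all 312 sites, a median fold of 1.70. It was 0.83 (quartiles 0.53 and 1.11) in gene bodies, 0.56 between genes and 0.91 at gained sites at gene ends. Regions away from gene ends with a peak in all 8 lists had a median of −0.42, and all regions one of 0.05.

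How large the change is in absolute terms depends on what is taken as constant. Scaling to the regions with a peak in all 8 lists moved the median of all regions from 0.05 to 0.39, and scaling to the sum of counts moved it to 0.25. The calls over all regions then went from 3339 higher and 3451 lower to 5658 and 1343, or to 4654 and 2238. The sites' median was 0.72 above that of all regions under each of these 3 scalings. A scaling shifts all regions nearly alike, so this gap could hardly move, and nothing is read from it. Reads at the 312 sites made up 0.724% ± 0.037 (SD, n = 2) of a library's counts over regions at DRB 0 h and 1.48% ± 0.14 at 12 h. For triptolide the shares were 0.751% ± 0.097 at 0 h and 1.60% ± 0.12 at 9 h (SD, n = 2). Every one of the 4 treated libraries (1.39% to 1.69%) lay above every untreated one (0.683% to 0.820%). The peak calls of these libraries chose the sites, so these shares too are a description.

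**Figure D2:**
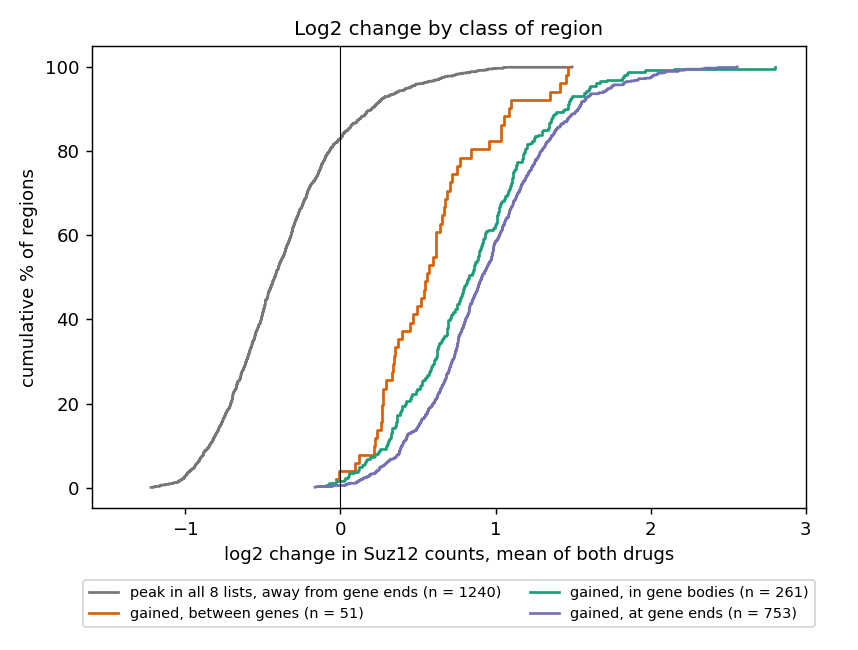
Cumulative share of regions (y axis, %) by log2 change in Suz12 counts as the mean of both drugs (x axis), for 4 classes of region. The curves of gained sites in gene bodies (median 0.83) and at gene ends (median 0.91) lie close together, intergenic sites (median 0.56) lie to their left, and regions away from gene ends with a peak in all 8 lists lie mostly below 0 (median −0.42). The classes were chosen by peak calls in the same libraries.

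The sites were small and weak beside regions that were bound throughout. Their widest peak had a median of 1451.5 bp (range 676 to 5118), against 2100.5 bp at regions with a peak in all 8 lists away from gene ends and 1451 bp at gained sites at gene ends. Per kb of peak, gene body sites had a median of 16.3 CPM in untreated and 27.8 CPM in treated cells. Intergenic sites had 18.4 and 25.2 CPM per kb, and gained sites at gene ends 15.7 and 29.0. Regions away from gene ends with a peak in all 8 lists had 53.6 untreated and 41.7 treated. The absence of a peak in untreated cells is therefore not an absence of reads: untreated libraries held counts over these sites, and how much of that is background was not tested. The sites lay at a median of 93353 bp from the nearest region with a peak in all 8 lists, and 33 lay within 10 kb of one. For gained sites at gene ends that median was 131325 bp. Their median distance to a protein-coding gene end was 6307 bp.

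Among the gene body sites, the highest treated counts were at Scaf1, C77080, Map1s, Zbtb7a, Cabin1, Zfp668, Zfp574 and Rai1. Scaf1 encodes an SR-related protein that associates with the C-terminal domain of RNA polymerase II. Its site (chr7:45006649-45009238) had 41.9 and 44.7 CPM at DRB 0 h, 132 and 146 CPM at DRB 12 h, 53.0 and 41.9 CPM at triptolide 0 h and 167 and 155 CPM at 9 h. The treated libraries lay far above the untreated ones, and the log2 change was 1.72 ± 0.11. The site lies 62.9% of the way along a gene of 13459 bp. No region's widest Suz12 peak lay within 1 kb of that gene's own ends.

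Zbtb7a, a zinc finger repressor also known as LRF, had 24.7 and 34.6 CPM at DRB 0 h and 146 and 109 CPM at 12 h. Triptolide took it from 33.8 and 31.4 CPM at 0 h to 108 and 102 CPM at 9 h (log2 change over both drugs 1.85 ± 0.14). Zbtb7a held 2 gained sites in its body, and its own gene end was gained as well. At Rai1, a chromatin-bound regulator named for its induction by retinoic acid, the ends instead carried a peak in all 8 lists. The Rai1 site was 3378 bp wide, lay 20657 bp from the nearest gene end and went from 39.3 to 52.7 CPM untreated to 93.7 to 118 CPM treated.

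The other 5 of these sites likewise did not overlap between untreated and treated libraries. Map1s, a microtubule-associated protein, had 32.9 to 51.3 CPM untreated and 114 to 131 CPM treated. Cabin1, a calcineurin-binding protein, had 39.7 to 51.8 and 105 to 128 CPM. The zinc finger genes Zfp668 and Zfp574 had 30.4 to 59.9 and 36.2 to 51.6 CPM untreated, and 87.2 to 132 and 94.4 to 127 CPM treated. C77080 had 31.2 to 43.3 CPM untreated and 101 to 157 CPM treated.

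**Figure D3:**
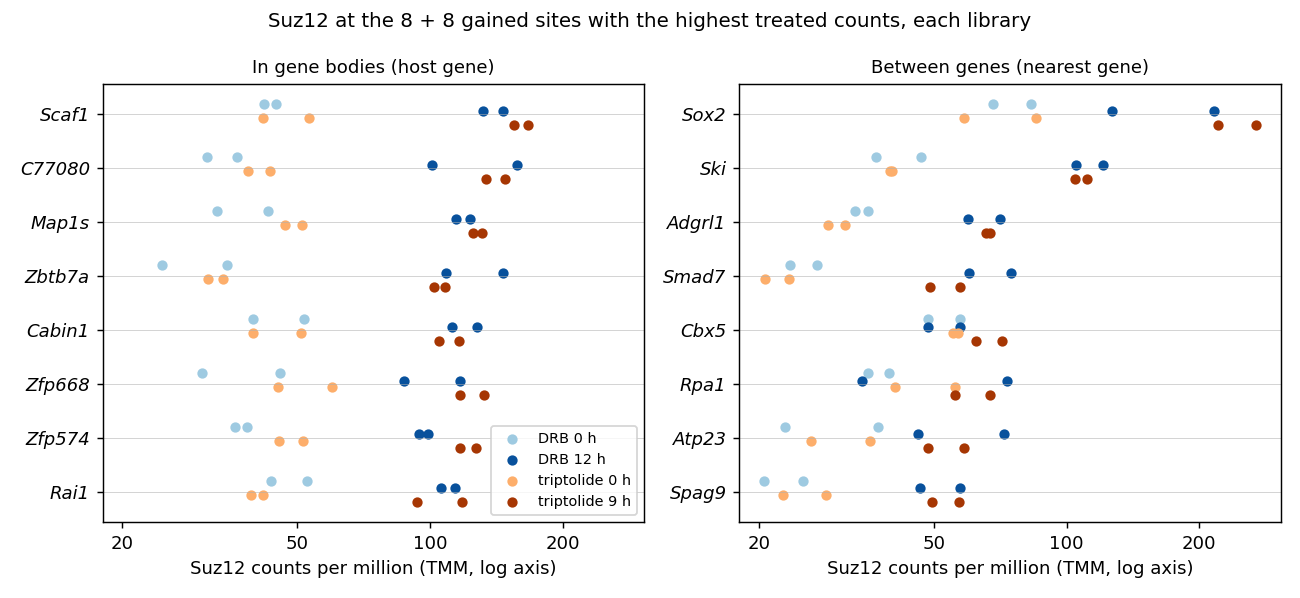
Suz12 CPM (x axis, log scale) in each of the 8 libraries at the 8 gene body and 8 intergenic sites with the highest treated counts; light points are 0 h and dark points treated libraries, blue for DRB and orange to brown for triptolide. Untreated and treated points are apart at all 8 gene body sites and mix at the intergenic sites near Cbx5 and Rpa1.

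The intergenic site with the highest counts lay near Sox2, the transcription factor gene at the centre of the pluripotency network. It was also the widest of all 312 sites (chr3:34660461-34665578, 5118 bp), 8000 bp from the nearest end of Sox2 and inside the long non-coding gene Sox2ot, which hosts Sox2. The libraries had 68.2 and 82.8 CPM at DRB 0 h, 127 and 216 CPM at DRB 12 h, 85.2 and 58.5 CPM at triptolide 0 h and 269 and 221 CPM at 9 h. Untreated and treated libraries did not overlap, and the spread was widest at DRB 12 h, where the library of index ATCACG was the lower. The log2 change was 1.47 ± 0.17. A second site, on the other side of Sox2 at chr3:34640570-34641245, was the narrowest of the 312. It had 10.7 to 16.3 CPM untreated and 11.2 to 20.5 CPM treated, which overlap (log2 change 0.34 ± 0.22, not called).

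Near Ski, a co-repressor of TGF-beta signalling, an intergenic site 2133 bp from the gene end had 36.9 to 46.8 CPM untreated and 105 to 121 CPM treated. A further site inside Ski had 14.8 to 30.7 CPM untreated and 39.6 to 63.5 CPM treated. The site nearest Smad7, an inhibitory Smad of the same pathway, lay 23747 bp away and had 20.6 to 27.1 CPM untreated and 48.9 to 74.8 CPM treated. Sites near Adgrl1 (latrophilin 1, an adhesion receptor), Atp23 (a mitochondrial protease) and Spag9 (a scaffold of JNK signalling) were also apart in all libraries, with log2 changes of 1.03 ± 0.12, 0.84 ± 0.19 and 1.10 ± 0.14.

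At the sites near Cbx5 and Rpa1, peaks in every treated list came without a called change in counts. At the site 7163 bp from Cbx5, the gene of heterochromatin protein 1 alpha, DRB had 48.5 and 57.4 CPM at 0 h and 48.4 and 57.3 CPM at 12 h. Triptolide had 55.3 and 56.7 CPM at 0 h and 62.4 and 71.2 CPM at 9 h, and the log2 change over both drugs was 0.12 ± 0.12. At Rpa1, a subunit of the single-stranded DNA binding complex, the DRB 12 h libraries had 34.4 and 73.2 CPM and so lay on both sides of the DRB 0 h values of 35.3 and 39.5 CPM. Triptolide libraries there had 55.9 and 40.8 CPM at 0 h and 66.8 and 55.8 CPM at 9 h. The fitted log2 change over both drugs at Rpa1 was positive, 0.45 ± 0.20, but missed the threshold (edgeR adjusted p = 0.0767). Of the 51 intergenic sites, 26 overlapped an annotated non-coding gene and 25 overlapped no annotated gene.

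The extremes of the whole set lay in gene bodies. The largest change was at the zinc finger gene Zfp710 (chr7:80025924-80027870), 1110 bp from its end, with 8.22 and 10.4 CPM at DRB 0 h, 101 and 60.9 CPM at DRB 12 h, 9.46 and 10.8 CPM at triptolide 0 h and 62.2 and 58.9 CPM at 9 h. All 4 untreated libraries were low, and the log2 change was 2.80 ± 0.20. Zfp462, a zinc finger gene with a role in pluripotent cells, and Nisch followed with 2.15 ± 0.19 and 1.96 ± 0.15. The smallest changes were at Ttll6, a tubulin glutamylase gene (−0.14 ± 0.18), at Ckm, the muscle creatine kinase gene (−0.09 ± 0.15), and at Gnaz, a G protein alpha subunit gene (−0.07 ± 0.17). None of the 3 was called, and their sign turned positive under both other scalings (0.06 to 0.27).

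The sites farthest from any gene end lay in long genes. In Robo1, a receptor of axon guidance, the site lay 382883 bp from the nearest end, and in Tenm3, a teneurin of synaptic matching, 329097 bp. Robo1 had 24.9 to 30.8 CPM untreated and 24.0 to 40.6 CPM treated, which overlap. Tenm3 did not overlap, with 23.0 to 31.1 CPM untreated and 33.2 to 45.5 CPM treated. Tiam1, which activates the GTPase Rac1, held 3 gained sites, the most of any gene. They lay 172993, 109330 and 78757 bp from the nearest end, and had log2 changes of 1.45 ± 0.20, 0.89 ± 0.15 and 1.25 ± 0.25. In all, 290 genes hosted or neighboured a site, and 21 of these had more than 1.

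Along their host genes, the sites with and without an internal start lay in different places. A position could be given for 202 gene body sites whose strand was known, and its median was 51.1% of the gene's length from the 5′ end. Sites that held an internal protein-coding start had a median of 16.6% (n = 58), and those without one a median of 62.1% (n = 144). Of the 202 sites, 53 lay in the first 20% of the gene, 66 between 20% and 60%, 52 between 60% and 80% and 31 in the last 20%. Regions away from gene ends with a peak in all 8 lists had a median position of 45.1% (n = 625). The host genes had a median length of 48.9 kb, against 57.3 kb for those of regions away from gene ends with a peak in all 8 lists, 45.9 kb for those of the other regions away from gene ends and 17.3 kb for all 21631 protein-coding genes. A site more than 1 kb from both ends cannot lie in a very short gene. The median log2 change was 0.88 where a listed start lay in the peak and 0.79 where none was listed there, a description of sites chosen by their peaks.

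**Figure D4:**
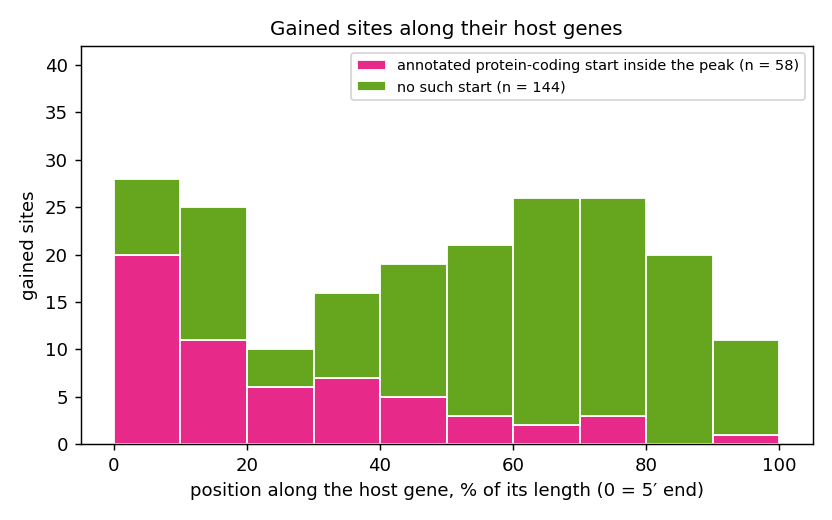
Number of gained sites (y axis) by position along the host gene in steps of 10% of its length (x axis, 0 at the 5′ end), for 202 sites with known strand. Sites with an annotated protein-coding start in the peak (n = 58, median 16.6%) gather towards the 5′ end, and sites without one (n = 144, median 62.1%) are most frequent between 60% and 80%.

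At 119 of the 261 gene body sites (45.6%) no region's widest Suz12 peak lay within 1 kb of the ends of the host gene itself. At 51 (19.5%) an end carried a peak in all 8 lists, at 27 (10.3%) an end was gained as well, and at 64 the ends had other peaks. Of the gene body regions away from gene ends with a peak in all 8 lists, 45.0% had a host gene with no peak at its ends, 41.7% one with a peak in all 8 lists there and 1.97% one with a gained end. Of the other gene body regions away from gene ends the shares were 41.7%, 32.5% and 5.33%.

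Non-coding starts lay in 16 sites, 10 of them among the 49 intergenic sites that the start table covers. These 16 sites held 18 starts of long non-coding RNAs, of which 9 (50%) were CpG-rich. That share was 45.6% at regions away from gene ends with a peak in all 8 lists, 48.9% at the other regions away from gene ends, 71.7% at gained sites at gene ends and 12.0% over the whole table. Sites near the tRNA gene n-TRtcg5 in Polg, the mitochondrial DNA polymerase gene, and at the lncRNA starts inside Map3k1 and Dlgap4 were among the strongest near non-coding genes. The peaks at Polg, Map3k1 and Dlgap4 also hold a CpG-rich protein-coding start of the host gene, with 26, 55 and 50 CG. For Map3k1 and Dlgap4 the start table lists no other protein-coding start of the gene. Polg had 35.3 to 41.0 CPM untreated and 97.4 to 114 CPM treated. Map3k1, a kinase of the MAP kinase cascade, had 32.9 to 39.3 CPM untreated, 89.2 and 85.6 CPM at DRB 12 h and 54.6 and 60.8 CPM at triptolide 9 h. Dlgap4, which encodes a postsynaptic scaffold, had 23.8 to 45.2 CPM untreated and 49.5 to 92.4 CPM treated. Cic, a repressor downstream of receptor tyrosine kinases, had a site within 1 kb of the end of the lncRNA Gm45974, with 43.6 to 62.5 CPM untreated and 69.1 to 100.3 CPM treated. A site 61303 bp from Kif13b, picked for its annotation after the values were seen, lay within 1 kb of the microRNA gene Mir124a-1. It had 12.6 to 13.97 CPM untreated, 26.0 and 29.8 CPM at DRB 12 h and 43.4 and 43.7 CPM at triptolide 9 h.

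Lists of genes by function show which pathways the sites touched, as counts without a test, over the list genes found in the annotation. The lists were chosen with earlier results of these data known. Host genes of gene body sites were also longer than protein-coding genes as a whole (median 48.9 against 17.3 kb). The share of all genes given next is therefore not a matched background, and no enrichment is read from these counts. For comparison, 290 of all 21631 protein-coding genes (1.34%) hosted or neighboured a site, and 79.8% of all 312 sites and 28.0% of all regions were called higher over both drugs, so a full count of calls in a short list is close to what the sites show as a whole. Of 50 genes of Wnt, TGF-beta, FGF, Notch and Hedgehog signalling, 7 hosted or neighboured sites (Acvr2b, Bmp4, Hes1, Notch3, Ptch1, Ski and Smad7), and all 9 sites were called higher (median log2 change 1.09). Among the chromatin regulators, the site in Ehmt2, which encodes the H3K9 methyltransferase G9a, had 28.0 to 42.4 CPM untreated and 78.0 to 94.3 CPM treated. Kdm6b, which encodes an H3K27 demethylase, had 2 sites with 28.9 to 42.7 and 28.0 to 49.3 CPM untreated and 57.5 to 88.5 and 49.4 to 86.8 CPM treated, and its own gene end was gained too. Among 35 Polycomb subunit genes, the site in Pcgf2, of PRC1, had 13.97 to 24.1 CPM untreated and 56.8 to 63.9 CPM treated. The other, in Bcor of the variant PRC1.1 complex, overlapped, with 18.9 to 35.0 CPM untreated and 24.4 to 53.1 CPM treated.

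Of 31 pluripotency genes, Sox2 and Sall4 had sites. The site in Sall4, a zinc finger factor of embryonic stem cells, had 18.9 to 28.7 CPM untreated, 46.8 and 99.1 CPM at DRB 12 h and 112 and 91.4 CPM at triptolide 9 h, with a log2 change of 1.82 ± 0.22. Among the lineage transcription factor genes, the site in Foxo3, a forkhead factor, had a log2 change of 0.72 ± 0.17. It overlapped by 1 library, since DRB 12 h index ATCACG had 25.2 CPM against at most 28.9 CPM untreated. Of 26 immediate early genes and feedback regulators of ERK signalling, Zfp36l1, an mRNA decay factor, and Atf3, a stress factor, had 1 site each. Zfp36l1 had 19.5 to 25.5 CPM untreated and 38.9 to 49.2 CPM treated, and the site near Atf3 had 14.9 to 19.5 and 16.8 to 22.5 CPM. Of 26 cytoskeleton and scaffold genes, Arhgef2, Plec, Shank1 and Tns3 had 5 sites. All were called higher, beside 79.8% of all 312 sites and 28.0% of all regions. Tns3, a focal adhesion protein, had 10.6 to 13.0 CPM untreated and 33.0 to 39.8 CPM treated. Plec had a log2 change of 0.69 ± 0.20 and lost its call without DRB 0 h index TGACCA (0.62, adjusted p = 0.0657). Of 23 imprinted genes, 0 hosted or neighboured a site. A list of 36 long non-coding and microRNA genes could not be matched, since sites are named by protein-coding genes.

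The change under DRB was also set against that under triptolide. The choice of sites asked for a peak in every list of both drugs, so regions that gained a peak under 1 drug only were left out beforehand. The few differences below therefore describe sites chosen to share a gain, and show nothing about how alike the drugs act. No site was called with a larger change under DRB or under triptolide at an adjusted p under 0.05 (edgeR, interaction of drug and time, without blocks). Over all regions 0.0% were called larger under DRB and 0.0167% (2 regions) larger under triptolide. At an unadjusted p under 0.05, 2 sites had the larger change under DRB and 6 under triptolide, 8 of 312, beside 0.569% and 1.05% of all regions (1.62% together). DESeq2 called 0 sites after adjustment and 2 before it. The fitted difference, DRB minus triptolide, had a median of 0.02 and ranged from −1.09 to 0.72. In simulated data of the same design the test found 5.75% of differences of 1.5-fold, 32.7% of 2-fold and 67.2% of 3-fold, so differences of these sizes could be missed. Across the 312 sites the log2 changes under the drugs, each against its own 0 h pair, had a Pearson r of 0.812, and across all regions 0.883. The points are regions counted in the same libraries, so no p is given.

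The largest fitted differences were at Tbca and Trim11 towards triptolide, and at Enah and Ssbp4 towards DRB. The site nearest Tbca, a tubulin folding cofactor gene, lay 80478 bp from it and 881 bp from a region with a peak in all 8 lists. It had 28.8 and 25.6 CPM at DRB 0 h and 17.6 and 28.6 CPM at 12 h. The triptolide values were 26.4 and 21.7 CPM at 0 h and 48.2 and 44.5 CPM at 9 h. The difference was −1.09 ± 0.34 (adjusted p = 0.999; 0.0343 when libraries sharing an index or number were kept as blocks). Trim11, which encodes a ubiquitin ligase, had 40.3 and 35.3 CPM at DRB 0 h, 40.0 and 44.5 CPM at DRB 12 h, 27.5 and 32.5 CPM at triptolide 0 h and 68.3 and 67.0 CPM at 9 h. The triptolide libraries were apart and the DRB libraries overlapped, and the difference was −0.98 ± 0.25 (adjusted p = 0.999; 0.0109 with those blocks). No source says that such libraries share a culture or day. Enah, an actin regulator gene, had 13.97 and 15.5 CPM at DRB 0 h, 58.8 and 49.4 CPM at DRB 12 h, 10.9 and 17.0 CPM at triptolide 0 h and 28.8 and 30.6 CPM at 9 h. Its difference was 0.72 ± 0.34 (adjusted p = 0.999), and that at Ssbp4, a single-stranded DNA binding protein gene, was 0.66 ± 0.25 (adjusted p = 0.999).

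**Figure D5:**
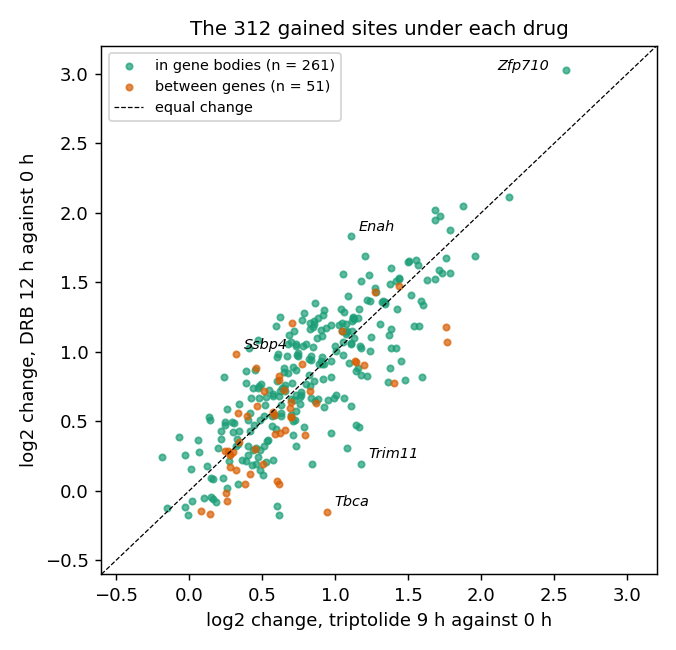
Log2 change at each of the 312 sites under DRB (y axis, 12 h against 0 h) and triptolide (x axis, 9 h against 0 h), with the line of equal change dashed. Sites spread around the line (Pearson r = 0.812), and the 4 sites named beside Zfp710 are those with the largest fitted difference, none of which was called without blocks.

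The distance rule has a threshold of 1 kb. Just inside lay the sites at Pcgf2 (1015 bp from the end, log2 change 1.58), Ckm (1021 bp, −0.09) and Septin11 (1048 bp, 0.80). Just outside, and so counted with the gene ends, lay gained regions at Slc4a2 (995 bp, 0.83), Kdm6b (984 bp, 0.68) and Mrto4 (960 bp, 0.94). The Septin11 peak holds an annotated start of its own, although it is counted as a gene body site.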

How the data were processed

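Only the 8 Suz12 libraries of the 0 h, 12 h and 9 h groups were used; 12 of the 20 samples in the series were not used here. Reads were aligned with Bowtie and peaks called with MACS, per the submitters' processing notes, which name the build mm10, with versions and settings not given in the sources used here. Each deposited list gives peaks and raw read counts per peak in 13 columns, per the file headers. 5 columns could not be tied to 1 labelled sample each, or hold input, and were not used. Peaks were shifted to 1-based starts and merged, and the counts of each region's widest peak were fitted with edgeR 4.0.16 (R 4.3.3; TMM, quasi-likelihood, 4 groups in 1 fit, no filter). Adjusted p-values are Benjamini-Hochberg over 11943 regions. Gene ends come from RefSeq (GRCm38.p6). With no genome used here, exons and the sequence of whole peaks were not examined. The start table holds no chromosome 18 and no usable entry for some other host genes. On simulated counts with known changes over both drugs the test found 28.8%, 81.1% and 100% of changes of 1.5-, 2- and 3-fold. Sites and gene lists were chosen with earlier results of these data known. Sites are named by the gene that holds the peak's middle, or else the nearest protein-coding gene. Named are the highest treated counts (8 per class), the largest differences between drugs (2 per side), the 3 largest and 3 smallest changes, the 3 widest and 3 farthest, up to 6 near non-coding genes, up to 3 per list and 3 on each side of the distance threshold. Symbols Gm plus a number or ending in Rik are not named for this purpose. Alternatives were other scalings, DESeq2 1.42.0, filterByExpr, replicate blocks (that with the DRB index was added after the data were seen), other peak rules and leaving out each library or list. Some results on single genes and the list counts that need them are not reported here.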

Additional observations from a re-analysis of the deposited data

How the results depend on the processing

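The number of sites depended most on the peak lists. Asking for a peak in at least 3 of the 4 treated lists gave 671 sites (540 in gene bodies, 131 intergenic), and using only peaks at least as wide as the median of 1357.0 bp gave 104 (97 and 7). Leaving out each list in turn gave 315 to 615 sites, 262 to 498 in gene bodies and 51 to 117 intergenic, with the highest numbers when the list of triptolide 9 h replicate 1 was dropped, which held the fewest peaks of the treated lists; by construction, 1 list fewer makes the rule looser. Other merging and distance rules gave 239 to 359. The number of sites called higher over both drugs was 219 to 264 when 1 library was left out, 293 and 280 under the other scalings, 229 by DESeq2 and 248 with filterByExpr. Under DRB it was 104 to 208, lowest without DRB 0 h index TGACCA. Under triptolide it was 120 to 239, with 120 without 9 h replicate 1 and 124 without 0 h replicate 2; the cause was not tested. The median log2 change was 1.11 when scaled to regions with a peak in all 8 lists and 0.97 when scaled to the sum of counts, both shifted with all regions, and 0.72 to 0.83 when 1 library was left out. No site was called for the difference between drugs in any of these settings, other than the added one below; the smallest adjusted p was 0.104, without DRB 12 h index TGACCA. Among the 51 named sites 3 changed sign, never called: Gnaz (0.27 and 0.12 under the scalings, −0.24 to 0.16 when 1 library was left out), Ckm (0.25 and 0.11, −0.17 to 0.032) and Ttll6 (0.20 and 0.061, −0.29 to 0.069). Another 7 sites gained a call over both drugs in 18 combinations of site and setting and 1 (Plec) lost it. The triptolide columns carry replicate numbers, and same-numbered libraries deviated together (correlation 0.459), but with only 2 pairs and no shared source named they were not treated as pairs. With the replicate block, 251 sites were called higher over both drugs, 194 under DRB and 198 under triptolide, 0 for the difference, and the median log2 change was 0.77. The DRB columns share an index between 0 h and 12 h, and same-index libraries also deviated together (correlation 0.441). A fit with blocks for DRB index and triptolide number together, added after the data were seen, called 276 sites higher over both drugs, 239 under DRB and 255 under triptolide (median 0.78), and 2 sites larger under triptolide (Tbca −1.03 and Trim11 −0.95). With 2 libraries a group, changes of 1.5-fold were mostly below what the test could call in simulated data.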
